A study of Mus musculus with 10 samples.

Results

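The axon guidance ligands and receptors are the semaphorins, slits, netrins and ephrins, which are secreted or carried on cell surfaces, and their plexin, neuropilin, Robo, Unc5, Dcc and Eph receptors. They were chosen by gene symbol alone, as the protein coding genes of classes 3 to 7 of the semaphorins and of those other families in the GENCODE mouse annotation. In total 69 genes match, and 68 of them are among the 18381 genes of the count table, 35 as ligands and 33 as receptors. Epha10 was not analysed here. The genes were measured by RNA-seq in first lower molars of wild type C57BL/6JOlaHsd mouse embryos at embryonic day 14, the cap stage, when the tooth is a folded epithelium around condensed mesenchyme. Each of 5 embryos, numbered 1, 2, 3, 4 and 6, gave 1 molar to IGF1 (insulin-like growth factor 1, mouse recombinant protein at 750 ng/ml) and 1 molar to control medium with the same volume of the PBS and BSA solvent. Both were cultured for 6 h in hanging drops, and each tooth made its own library, so that both groups hold 5 teeth and the comparison is made within embryos. The culture shows a short response of an isolated whole tooth germ to a single concentration of added ligand.

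Guidance cues were first described as signals that attract or repel growing axons. The same receptors also control cell adhesion, cell sorting at boundaries, migration and the sprouting of vessels in organs outside the nervous system. In the developing tooth, semaphorins of class 3 and other cues made by the dental mesenchyme are known to keep sensory axons out of the tooth germ until later stages. The cell bodies of those axons lie in the trigeminal ganglion, outside the tooth, and the samples hold the RNA of the dissected tooth germ with the vessels, blood cells and glia it contains.

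Control teeth had 2845773 to 8403151 counts in total and IGF1 teeth 3456634 to 8763113. The lowest total of each group was that of embryo 1, where low genes rest on the fewest reads. Of the 14504 genes with enough counts for a test, 63 were guidance genes. The other 5 guidance genes had few counts over all 10 teeth. Plxnb3 had 33, Epha6 had 96, Epha8 had 18, Robo3 had 45 and Ntn5 had 61. The changes given are log2 fold changes of IGF1 over control from edgeR's quasi-likelihood test with embryo as a block, and a gene was called changed at a Benjamini-Hochberg adjusted p under 0.05 over all genes tested. Levels in single teeth are counts scaled to the library size after TMM (CPM), and levels of different genes were compared only after division by exon length in kb. In whole teeth, fewer cells of a type and less RNA per cell cannot be told apart.

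To show the starts of 3 genes that changed with IGF1 under nearly all settings, the promoter windows of Unc5a, Sema5a and Ephb6 are printed from RefSeq (GRCm38.p6), on the + strand, from 250 bases before to 50 bases after a transcript start. Unc5a is at chr13:54949161-54949460, Sema5a at chr15:32244563-32244862 and Ephb6 at chr6:41605261-41605560. Capitals mark matches on either strand to ACGTG and GCGTG, the core letters of the hypoxia response element, and none of these windows held TGTTTAC, a forkhead motif.
Unc5a: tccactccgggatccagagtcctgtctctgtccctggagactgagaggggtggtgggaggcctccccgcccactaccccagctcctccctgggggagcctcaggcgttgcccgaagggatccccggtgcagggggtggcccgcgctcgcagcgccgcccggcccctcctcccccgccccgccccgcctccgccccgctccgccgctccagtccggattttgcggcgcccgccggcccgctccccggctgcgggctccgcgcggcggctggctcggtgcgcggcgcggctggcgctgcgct
Sema5a: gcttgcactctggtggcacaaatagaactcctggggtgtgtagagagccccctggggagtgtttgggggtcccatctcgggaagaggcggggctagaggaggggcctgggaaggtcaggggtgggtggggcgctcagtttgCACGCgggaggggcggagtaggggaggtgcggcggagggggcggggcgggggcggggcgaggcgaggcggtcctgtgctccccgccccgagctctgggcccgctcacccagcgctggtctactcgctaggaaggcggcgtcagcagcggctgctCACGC
Ephb6: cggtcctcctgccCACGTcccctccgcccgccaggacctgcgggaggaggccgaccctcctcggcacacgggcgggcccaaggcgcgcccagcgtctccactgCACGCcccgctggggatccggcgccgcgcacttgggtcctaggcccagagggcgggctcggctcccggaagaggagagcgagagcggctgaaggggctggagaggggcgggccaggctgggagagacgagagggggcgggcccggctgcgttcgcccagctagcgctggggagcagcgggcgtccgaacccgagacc
The Unc5a window held neither core motif, and the Sema5a window held 2 matches to GCGTG. The Ephb6 window held 1 match to ACGTG and 1 to GCGTG. The windows of Slit2 and Ntn4, which also changed and are not printed, held 0 matches to either. No window is given here for Sema6a, called under all 11 alternative settings, or for Sema3f and Slit1. The printed windows are rich in G and C, with 78.3% for Unc5a, 71.3% for Sema5a and 76.3% for Ephb6. The table gave 74 windows for 58 of the guidance genes. Their median GC content was 64.2%, against 52.7% over all 32851 windows, and their median number of CpG dinucleotides was 18.5, against 7. All windows together cover 27025 genes and were not limited to protein coding genes, as the guidance genes are. ACGTG was found in 17.6% of the guidance gene windows and in 19.6% of all windows, GCGTG in 39.2% and 32.4%, and TGTTTAC in 0% and 3.65%. A match is a stretch of letters and not a site of binding, which was not measured.

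Most guidance genes were expressed in the cultured molar without added ligand. In control teeth, 60 of the 68 genes had a mean level above 1 CPM per kb of exon and 31 were above 10, while 3 were below 0.1. The median was 9.04, against 5.41 over the protein coding genes of the table. The highest was Plxnb2, a receptor of class 4 semaphorins, at 62.8 ± 7.86 CPM per kb (SD, n = 5), which is the 97.4th percentile of protein coding genes. It was followed by the ephrin-B receptor Ephb4 at 36.5 ± 4.33 and the ligand Slit3 at 32.9 ± 4.71, whose ranges over teeth overlapped each other but not that of Plxnb2. The order below Plxnb2 depended on the length used. With the longest coding transcript in place of all exons, Plxnb2 (74.7) was followed by Robo1 (43.5), Epha3 (41.7) and Sema5a (40.7), with Ephb4 at 39.0 and Slit3 at 38.2.

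**Figure D1:**
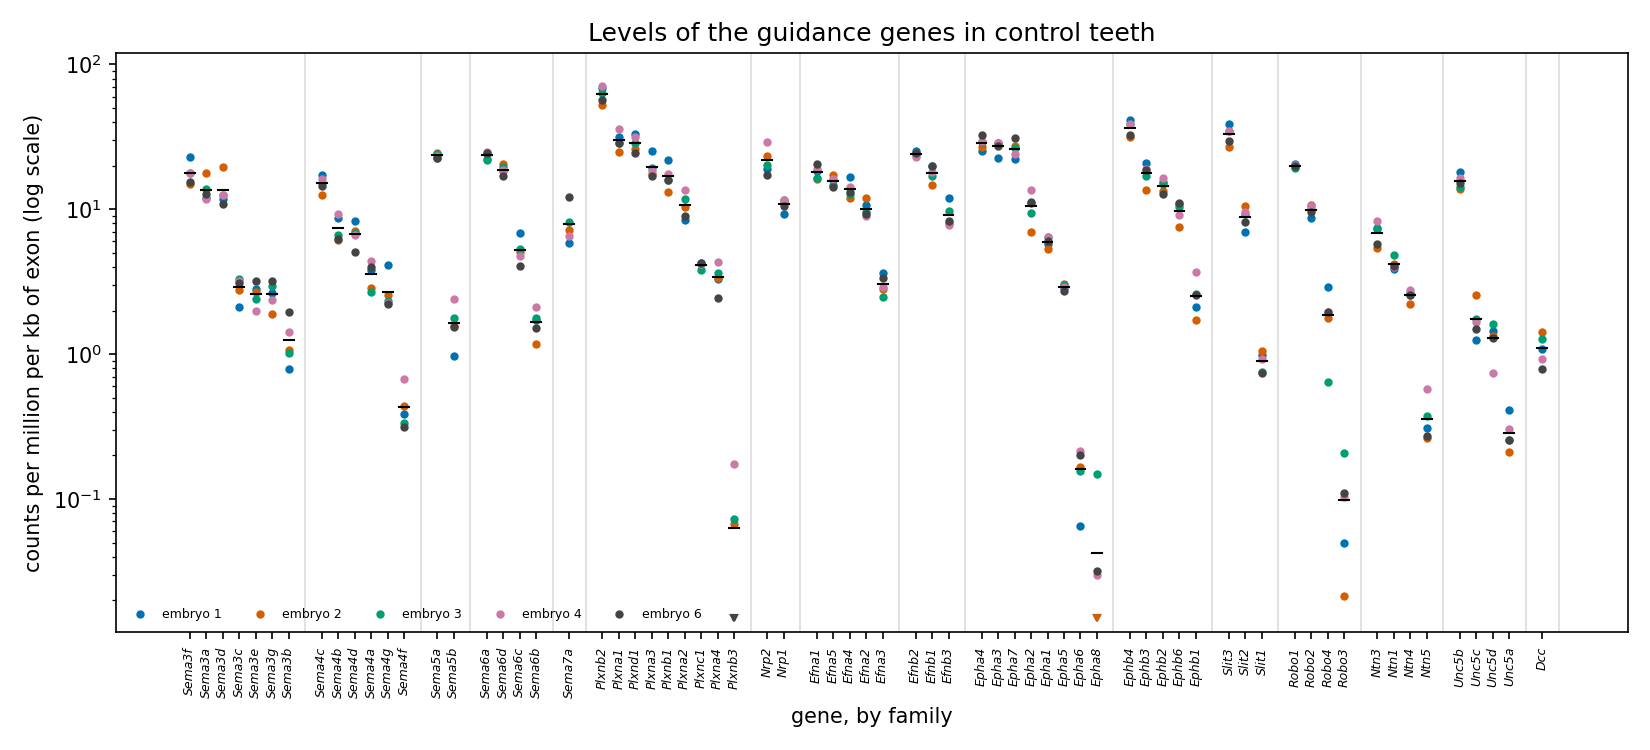
Level of each of the 68 guidance genes in the 5 control teeth, in CPM per kb of exon on a log axis, by family and in order of the mean. Points are teeth coloured by embryo, bars are means, and triangles at the base stand for teeth with a count of 0, which can cover each other. Most genes lie between 1 and 40, and Unc5a and Slit1 are the lowest of their families.

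Among the semaphorins, the highest levels per kb in control teeth were those of Sema5a at 23.5 ± 0.873 and Sema6a at 23.5 ± 1.29, transmembrane proteins of classes 5 and 6. The secreted class 3 was led by Sema3f at 17.8 ± 3.09, which overlapped with Sema3a at 13.6 ± 2.52, and Sema3a overlapped in turn with Sema3d at 13.5 ± 3.52. Sema4c led class 4 at 15.1 ± 1.74, and the membrane-anchored Sema7a was at 7.98 ± 2.50. With the longest coding transcript as the length, Sema5a was still the highest semaphorin, while Sema3a stood above Sema3f and, with Sema6d, above Sema6a. Of their receptors other than Plxnb2, Plxna1 was at 30.0 ± 4.13 and Plxnd1 at 28.8 ± 3.80, whose ranges overlapped, and the neuropilin Nrp2, a coreceptor of class 3 semaphorins, was at 21.8 ± 4.70 against 10.9 ± 0.979 for Nrp1. By the longest coding transcript the neuropilins were closer, at 38.4 for Nrp2 and 29.5 for Nrp1, and Nrp2 stood above Plxnd1 (30.4) and Plxna1 (30.1).

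Eph receptors and ephrins signal between touching cells. Among the EphA receptors, Epha4 at 28.8 ± 2.78, Epha3 at 27.2 ± 2.67 and Epha7 at 26.3 ± 3.24 had overlapping ranges, all above Epha2 at 10.5 ± 2.46, and with the longest coding transcript as the length Epha3 was the highest. The ephrins were led by Efna1 at 18.2 ± 1.86 and Efnb2 at 24.2 ± 0.853. Within the slit family, Slit3 was followed by Slit2 at 8.89 ± 1.36 and by Slit1 at 0.894 ± 0.141, with no overlap between neighbours. Robo1, the most highly expressed slit receptor, was at 19.9 ± 0.449 and lay between 19.3 and 20.5 in all 5 control teeth. The netrins were lower, led by Ntn3 at 6.85 ± 1.20 and Ntn1 at 4.18 ± 0.368. Of their receptors, Unc5b was at 15.6 ± 1.72, Dcc at 1.10 ± 0.258 and Unc5a at 0.287 ± 0.0772.

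With IGF1, 8 of the 63 tested guidance genes changed (12.7%), against 11.5% of all genes tested. Unc5a, Slit1 and Sema3f rose, which is 3 of 63 beside 6.72% of all genes, and Sema5a, Sema6a, Slit2, Ephb6 and Ntn4 fell, which is 5 of 63 beside 4.76%. The share of changed genes among the guidance genes was therefore close to that of the transcriptome. The count of 8 went to 5 without the block by embryo, without embryo 4 and without embryo 6. Over all genes 887, 986 and 994 were called in those fits, in place of 1666. Only 1 guidance gene was called higher without embryo 3 or without embryo 6, and 3 lower without the block or without embryo 4. The median log2 fold change was -0.05, with 26 positive and 37 negative values, against a median of -0.0038 over all genes tested. In embryos 1, 2, 3, 4 and 6 the median log2 ratio of the guidance genes was 0.04, -0.05, -0.10, -0.11 and 0.03. Ligands changed in 6 of 34 cases (17.6%) and receptors in 2 of 29 (6.90%), and the difference between these shares was not tested. With no adjustment, edgeR had 20 guidance genes under 0.05 (31.7%), against 26.5% of all genes, and the unadjusted counts given for single families stand beside that share. All 8 changed genes moved the same way in all 5 embryos, as did nearly all called genes (11% of all genes tested, out of 11.5% called). Over all tested guidance genes, 16 moved the same way in all embryos (25.4%), against 24.2% of all genes.

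**Figure D2:**
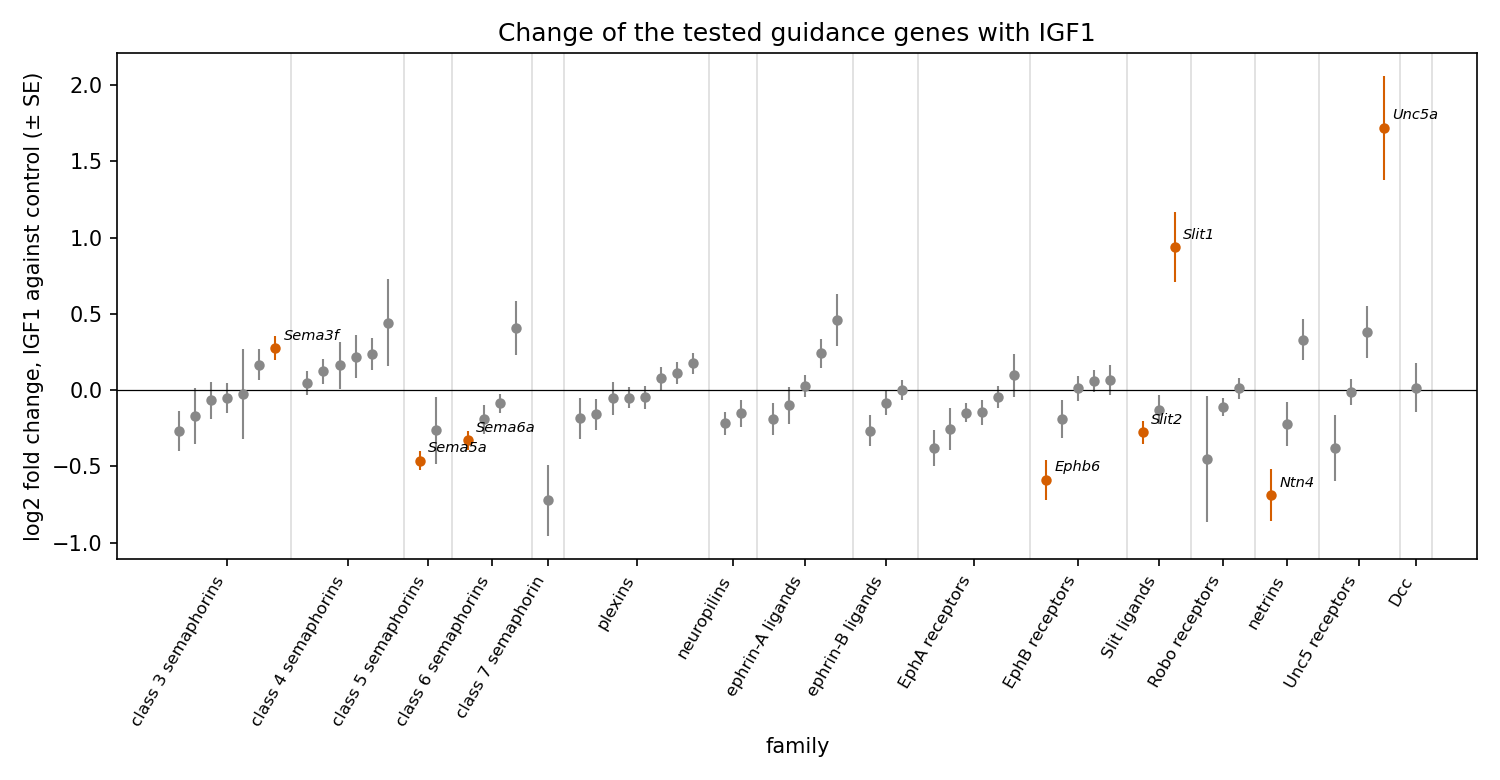
Log2 fold change with IGF1 for the 63 tested guidance genes, with its standard error as a bar, by family and in order of the change within each. Orange points with names are the 8 genes with an adjusted p under 0.05, and the others are grey. Most values lie within 0.5 of 0, with Unc5a at 1.72 and Slit1 at 0.94 above the rest.

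Sema5a, a transmembrane semaphorin with thrombospondin repeats, had the smallest p of the guidance genes. Its level in the control teeth of embryos 1, 2, 3, 4 and 6 was 423, 459, 453, 439 and 425 CPM, and in their IGF1 teeth 297, 318, 336, 338 and 309. Every IGF1 tooth was below every control tooth. The mean fell from 439.9 ± 16.3 to 319.5 ± 17.7 (SD, n = 5 each), a fall by 27.4%, with a log2 fold change of -0.46 (SE 0.061, edgeR adjusted p = 0.000913). The ratios in single embryos ran only from -0.53 to -0.38 on the log2 scale. Sema5a lies on chromosome 15 at 32244810 to 32696341 (GRCm38). The other class 5 member, Sema5b, had a log2 fold change of -0.26 (SE 0.22, edgeR adjusted p = 0.499).

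Sema6a, which binds class A plexins and also acts as a receptor, fell as well. Its control levels in the same order of embryos were 213, 195, 193, 218 and 214 CPM, and its IGF1 levels were 157, 155, 167, 178 and 164. The groups did not overlap. The mean fell by 20.4%, a log2 fold change of -0.33 (SE 0.064, edgeR adjusted p = 0.00775), with ratios from -0.44 to -0.21 in single embryos. The rest of class 6 did not pass the threshold, and the class 6 genes did not share a direction, as Sema6d had a log2 fold change of -0.09, Sema6c of -0.19 and Sema6b of 0.41. Sema5a and Sema6a were called under all 11 alternative settings of the analysis.

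Sema3f, a secreted semaphorin that signals through Nrp2, rose. Control teeth had 119, 77.7, 92.5, 93.0 and 80.9 CPM and IGF1 teeth 138, 93.3, 102, 105 and 121. The groups overlapped because embryo 1 was the highest in both, while the IGF1 tooth was above its own control in each embryo. The log2 fold change was 0.28 (SE 0.080, edgeR adjusted p = 0.0476), and the call was kept in only 2 of 11 alternatives. It was lost without any single embryo, with adjusted p from 0.0519 without embryo 3 to 0.180 without embryo 6, and without the block by embryo (adjusted p = 0.26). The other 6 class 3 semaphorins did not pass the threshold over all embryos, and their log2 fold changes ran from -0.27 for Sema3c to 0.17 for Sema3a. Without embryo 2 Sema3a was called, at 0.30 (SE 0.074, edgeR adjusted p = 0.0334). The 6 class 4 semaphorins had values that were all positive, from 0.05 for Sema4c to 0.44 for Sema4f with a median of 0.19, and edgeR, DESeq2 and limma-voom called 0 of the 6. With no adjustment edgeR had 1 of them under 0.05, Sema4b. The median log2 ratio of class 4 was 0.04, 0.40, 0.37, -0.11 and 0.19 in embryos 1, 2, 3, 4 and 6.

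Sema7a, an anchored semaphorin that signals through integrins and Plxnc1, did not pass the threshold, and its values differed widely between embryos. Its control levels were 19.2, 23.9, 26.8, 21.5 and 40.2 CPM, and its IGF1 levels 16.7, 9.96, 7.67, 15.6 and 41.2. Both teeth of embryo 6 stood above all others. The log2 ratios were -0.20, -1.26, -1.79, -0.46 and 0.03 in embryos 1, 2, 3, 4 and 6, and the log2 fold change was -0.72 (SE 0.23, edgeR adjusted p = 0.0717). It was called without embryo 6, with a log2 fold change of -0.97 and an adjusted p of 0.0371, and by DESeq2's Wald test and with a stricter filter on low counts. Without embryo 3 it was -0.46 (adjusted p = 0.154), and without the block by embryo -0.55 (adjusted p = 0.462).

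**Figure D3:**
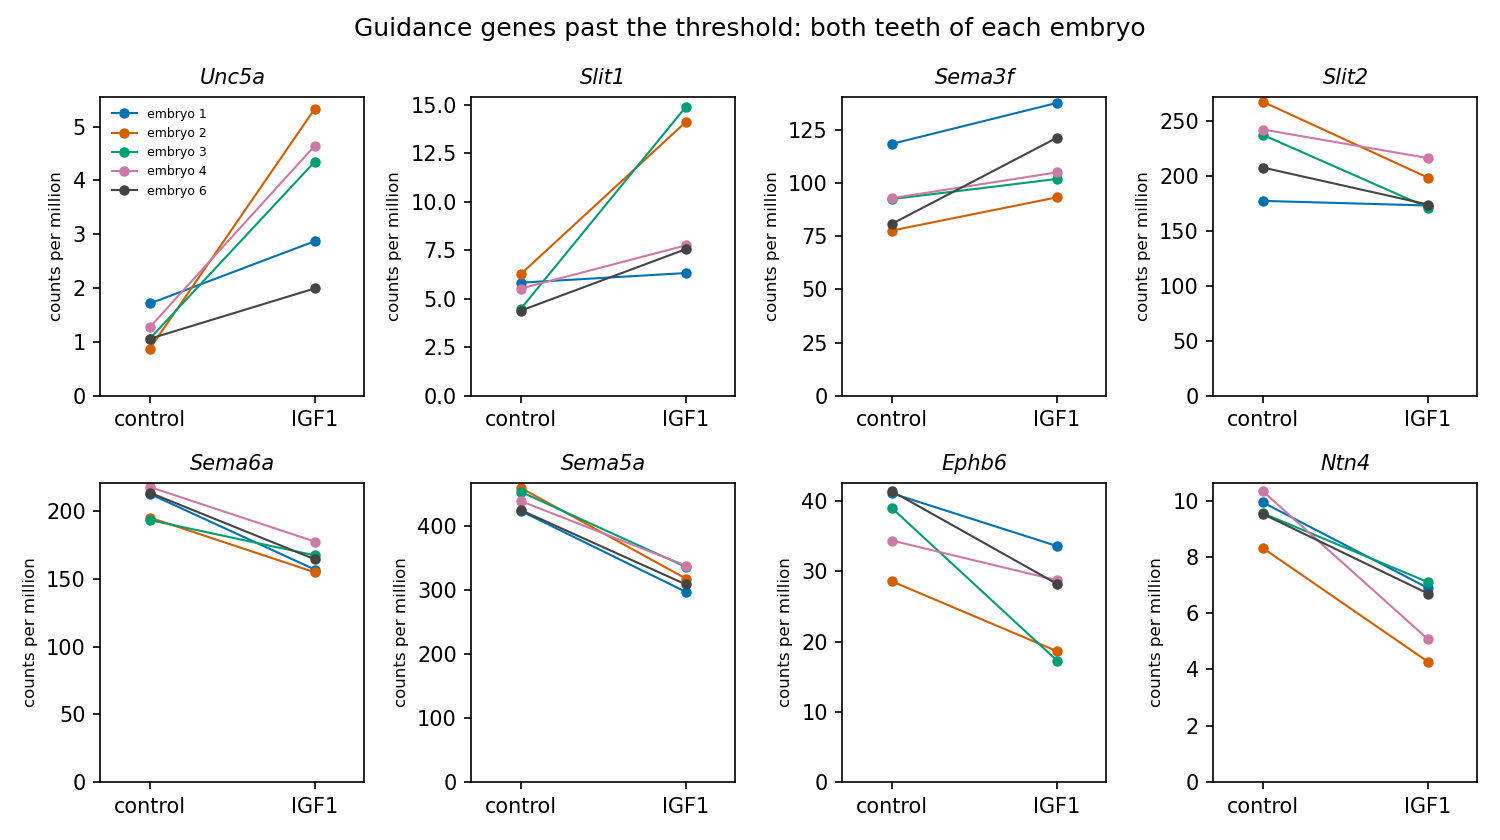
Level in CPM, from 0 on each axis, of the 8 changed guidance genes in the control and the IGF1 tooth of each embryo, with a line joining the teeth of an embryo. All lines of Unc5a, Slit1 and Sema3f rise and all lines of Slit2, Sema6a, Sema5a, Ephb6 and Ntn4 fall, while the groups overlap for Sema3f, Slit2 and Ephb6.

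Plexins, the main semaphorin receptors, were 0 of 8 called, and their log2 fold changes lay between -0.18 for Plxna4 and 0.18 for Plxnd1. Plxnb2, the most highly expressed guidance gene, had 485 ± 60.7 CPM in control and 510 ± 42.3 in IGF1 teeth. With no adjustment 1 plexin, Plxnd1, was under 0.05, and DESeq2 and limma-voom called 0. Both neuropilins had values below 0, with -0.22 for Nrp2 (SE 0.075, edgeR adjusted p = 0.09) and -0.15 for Nrp1 (SE 0.089, edgeR adjusted p = 0.312). Without embryo 2 Nrp2 passed the threshold, with a log2 fold change of -0.28 and an adjusted p of 0.0451.

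The slit ligands moved in different directions. Slit1 rose from a low level, with 5.82, 6.27, 4.48, 5.52 and 4.38 CPM in control teeth and 6.32, 14.1, 14.9, 7.75 and 7.55 in IGF1 teeth. The groups did not overlap, and the teeth of embryos 2 and 3 rose most. The log2 fold change was 0.94 (SE 0.23, edgeR adjusted p = 0.0228), and its ratio in single embryos ran from 0.12 in embryo 1 to 1.72 in embryo 3. Slit1 was not called without embryo 2 (adjusted p = 0.0816), without embryo 3 (0.0805, with a log2 fold change of 0.70) or without embryo 6 (0.0595). Slit2, at a far higher level, was at 177, 267, 237, 242 and 207 CPM in control teeth and at 173, 198, 171, 216 and 174 in IGF1 teeth. These groups overlapped, and embryo 1 hardly differed between its teeth. The log2 fold change of Slit2 was -0.28 (SE 0.077, edgeR adjusted p = 0.0406). It was not called without the block (adjusted p = 0.175), nor without embryo 2 (0.116), 3 (0.0804), 4 (0.0832) or 6 (0.0983). Slit3 had a log2 fold change of -0.13 (SE 0.096, edgeR adjusted p = 0.44).

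None of the 3 tested Robo receptors was called by edgeR, and at unadjusted p under 0.05 it found 0 as well. DESeq2's Wald test and limma-voom called 0. Robo1 was nevertheless a gene whose groups did not overlap, with 319 to 338 CPM in control and 286 to 317 in IGF1 teeth. Its log2 fold change was -0.11 (SE 0.061, edgeR adjusted p = 0.292). Together 6 guidance genes had groups without overlap (9.52%), beside 7.24% of all genes tested, which were Unc5a and Slit1 with higher and Sema5a, Sema6a, Ntn4 and Robo1 with lower levels in IGF1 teeth. Robo4, the Robo of endothelial cells, had a log2 fold change of -0.45 with a wide error (SE 0.41).

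Unc5a, a netrin receptor that mediates repulsion, had the largest change of any guidance gene and the lowest level of those changed. Its raw counts in control teeth were 5, 6, 9, 9 and 7, and in IGF1 teeth 10, 45, 38, 33 and 14. As CPM these were 1.71, 0.875, 1.06, 1.27 and 1.06 in control and 2.87, 5.34, 4.35, 4.65 and 1.99 in IGF1 teeth. Each IGF1 tooth was above all control teeth, and those of embryos 2, 3 and 4 were the highest. The log2 fold change was 1.72 (SE 0.34, edgeR adjusted p = 0.00812), or 3.30-fold, and it was called under all 11 alternatives. The log2 ratios ran from 0.72 in embryo 1 to 2.51 in embryo 2. Unc5a lies on chromosome 13 at 54949411 to 55006018 (GRCm38), and 34 of its 4168 exonic bases overlap the gene Hk3 on the other strand. The remaining Unc5 genes were not called by edgeR over the 5 embryos, with log2 fold changes of -0.01 for Unc5b, 0.38 for Unc5c and -0.38 for Unc5d. Without embryo 2 Unc5c was called, at 0.57 (SE 0.15, edgeR adjusted p = 0.0475). Dcc, the netrin receptor that mediates attraction, was at 0.02 (SE 0.16).

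Ntn4, a netrin of basement membranes, fell. Its control levels were 9.93, 8.31, 9.55, 10.3 and 9.52 CPM and its IGF1 levels 6.89, 4.27, 7.10, 5.07 and 6.70, with no overlap between groups. This is a log2 fold change of -0.69 (SE 0.17, edgeR adjusted p = 0.0268), a fall by 37.9%. The call was lost by DESeq2's Wald test (adjusted p = 0.0793) and without embryo 1 (0.0532), 2 (0.0809), 4 (0.102) or 6 (0.0631). Ntn3 had a log2 fold change of 0.33 (SE 0.13, edgeR adjusted p = 0.137) and Ntn1 of -0.22 (SE 0.15, edgeR adjusted p = 0.375).

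Among the Eph receptors only Ephb6, a member whose kinase domain is inactive, was called by edgeR. It was at 41.1, 28.6, 39.0, 34.4 and 41.4 CPM in control teeth and at 33.6, 18.6, 17.3, 28.7 and 28.2 in IGF1 teeth. The groups overlapped because the control tooth of embryo 2 was low, and the largest fall was that of embryo 3. The log2 fold change was -0.59 (SE 0.13, edgeR adjusted p = 0.0156), a fall by 33.4%, and without the block by embryo it was not called (adjusted p = 0.0869). The other 4 EphB receptors had values from -0.19 for Ephb1 to 0.07 for Ephb2, with Ephb4 at 0.06. The 6 tested EphA receptors had 5 values below 0, with 0 called by edgeR and 2 under 0.05 with no adjustment, Epha4 and Epha5. Of these Epha5 was the nearest to the threshold, at a log2 fold change of -0.38 (SE 0.12, edgeR adjusted p = 0.0591). Its control teeth lay between 46.0 and 51.2 CPM and its IGF1 teeth between 29.2 and 50.3, with the IGF1 tooth of embryo 1 above its own control. It was called without embryo 1 (log2 fold change -0.48, adjusted p = 0.0357), without embryo 3 (-0.45, adjusted p = 0.0452), by limma-voom and with a stricter filter on low counts. None of the 8 ephrins was called by edgeR. Their log2 fold changes ran from -0.27 for Efnb3 to 0.46 for Efna3. With no adjustment 3 were under 0.05 (Efna3, Efna4 and Efnb3), and DESeq2 and limma-voom called 0.

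**Figure D4:**
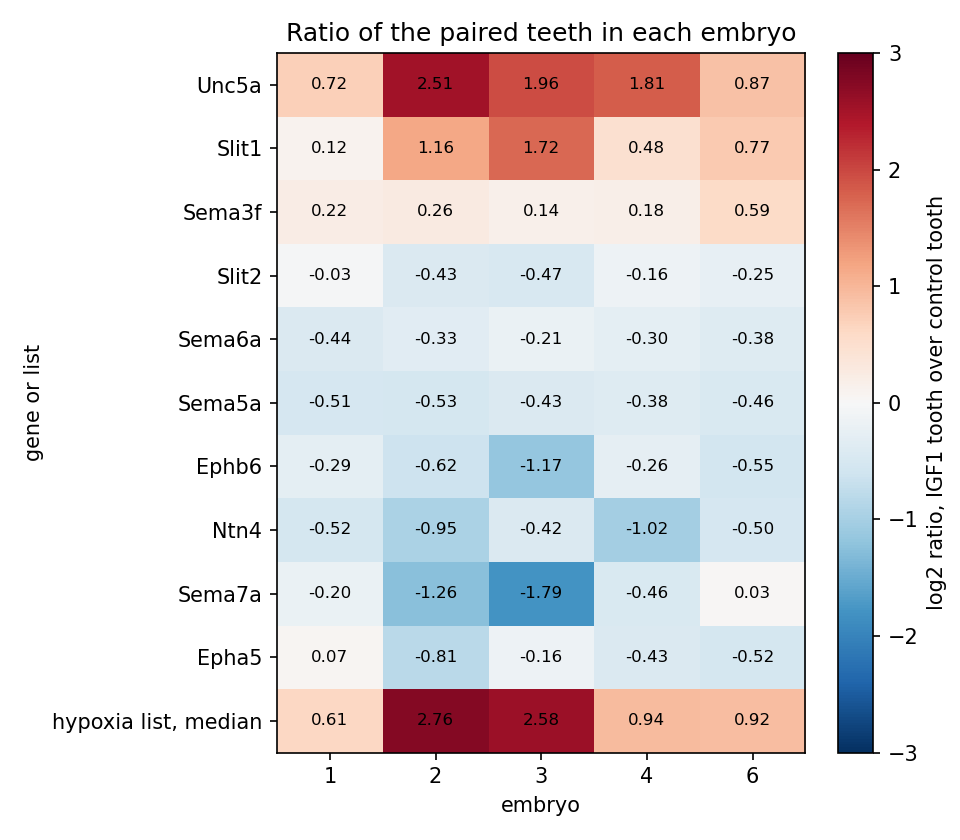
Log2 ratio of the IGF1 tooth over the control tooth in each embryo for the 8 changed guidance genes, for Sema7a and Epha5, and, in the bottom line, the median over the tested genes of the hypoxia response list. Red is higher and blue lower with IGF1. The hypoxia list is highest in embryos 2 and 3, at 2.76 and 2.58. The 2 ratios farthest from 0 are in the same embryos for Unc5a, Slit1, Slit2, Ephb6 and Sema7a, by small margins for Unc5a and Ephb6. For Sema3f, Sema6a, Sema5a, Ntn4 and Epha5 they are not, though Sema5a and Epha5 are farthest in embryo 2.

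Summed over genes, the 35 ligands together had 2374 to 2577 CPM in control teeth and 2264 to 2366 in IGF1 teeth, which do not overlap. Without Sema5a the ranges were 1950 to 2118 and 1950 to 2069 and did overlap. The summed receptors overlapped, with 3705 to 4331 CPM in control and 3602 to 4103 in IGF1 teeth.

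Differences between embryos shared by both teeth were called for 0 of the 63 guidance genes by edgeR, beside 0.4% of all genes, while 25 had an unadjusted p under 0.05 (39.7%, against 22.8% of all genes). The smallest adjusted p was that of Nrp2 (edgeR, 0.0647), whose mean of both teeth was 214, 279, 222, 304 and 182 CPM in embryos 1, 2, 3, 4 and 6. This count depended on the tool. DESeq2's likelihood ratio test called 5 guidance genes (Sema7a, Plxna3, Plxnb1, Plxnd1 and Nrp2) beside 4.92% of all genes, limma-voom called 0, and edgeR called 7 without embryo 3, beside 4.65% of all genes.

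The wider guidance pathway was read from 3 further lists, beside 11.5% of all genes called, 6.72% higher and 4.76% lower. Of the other cues and coreceptors, 8 of 28 changed (28.6%), 6 rising and 2 falling, with a median log2 fold change of -0.09. Vegfa, the vessel growth factor that also binds neuropilins, rose most, at 1.19 (SE 0.21), followed by the cell adhesion molecules Nfasc at 0.78 (SE 0.18) and Chl1 at 0.55 (SE 0.11), while Ntng1, a membrane-anchored relative of netrins, fell by 0.41 (SE 0.089) on the log2 scale. Flrt1, a membrane protein that binds Unc5 receptors, rose by 0.35 (SE 0.090). Vegfa is also a gene of the hypoxia response list. Of the signal transducers below the receptors, 10 of 54 changed (18.5%), 5 in each direction, with a median of 0.03. The collapsin response mediators, which link semaphorin receptors to microtubules, differed in direction. Crmp1 rose by 0.86 (SE 0.17), Dpysl2 by 0.58 (SE 0.065) and Dpysl5 by 0.56 (SE 0.092), and Dpysl3 fell by 0.40 (SE 0.078), while Dpysl4 did not pass the threshold, at 0.10 (SE 0.20). Ablim3, which binds actin, fell by 1.17 (SE 0.30) from a mean of 3.39 CPM, and Chn2, a regulator of Rac, rose by 0.46 (SE 0.13). Of the neurotrophins, glial derived factors and their receptors, 3 of 13 changed (23.1%), with a median of -0.35 and 10 values below 0. Ret, the receptor of the glial derived factors, fell by 1.40 (SE 0.23), from 8.90 ± 3.58 to 3.50 ± 1.48 CPM. Ngfr, the low affinity neurotrophin receptor, fell by 0.48 (SE 0.11), and Gfra2 rose by 0.47 (SE 0.13). Without the block by embryo these counts were 5, 3 and 1. In fits without single embryos they had ranges of 3 to 8, 4 to 11 and 1 to 3, where the lowest were reached without embryos 4 and 6 for the cues, without embryo 6 for the transducers and without embryo 1 for the neurotrophins.

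Marker lists were read beside the guidance genes, against 11.5% of all genes called, 6.72% higher and 4.76% lower. The shares called were 90.5% for the hypoxia response, 75% for red blood cells and 23.5% for mesenchyme. They were 16.7% each for glia and neurons, 12.5% for endothelium, 10% for epithelium and 7.69% for macrophages. For muscle and for cartilage and bone the share was 0%. Of 21 tested genes of the hypoxia response, 19 rose, with a median log2 fold change of 1.68, and their summed level was 1333 to 2071 CPM in control and 2558 to 8787 in IGF1 teeth. The median ratio was 0.61, 2.76, 2.58, 0.94 and 0.92 in embryos 1, 2, 3, 4 and 6. Among the changed guidance genes, the ratios of Unc5a, Slit1, Slit2 and Ephb6 were farthest from 0 in embryos 2 and 3, where this list was highest, while those of Sema6a were in embryo 1, of Ntn4 in embryo 4, of Sema3f in embryo 6 and of Sema5a in embryos 1 and 2. Some margins were small. Unc5a was at 1.96 in embryo 3 and 1.81 in embryo 4, and Ephb6 at -0.62 in embryo 2 and -0.55 in embryo 6. Ntn4 was at -1.02 in embryo 4 and -0.95 in embryo 2. The part of the hypoxia response in the guidance gene values was not tested. Of 20 epithelial markers 1 was called higher and 1 lower, and 12 had values above 0, with a median of 0.15 and sums of 3191 to 4422 against 3520 to 4675 CPM. Of 17 mesenchymal markers 4 fell, among them Pdgfra and Vim, with a median of -0.11 and sums of 9591 to 11410 against 8597 to 11000. Of 16 endothelial markers 14 had values below 0 and 2 were called lower, with sums of 551 to 650 against 464 to 615, and 6 of 8 red blood cell genes fell, with sums of 864 to 1447 against 614 to 1122. Of 13 tested macrophage markers 11 had values below 0 and 1 was called lower, with a median of -0.29 and sums of 94.0 to 137 against 83.8 to 122.6. Of the Schwann cell and glia list 6 of 11 were tested and Ngfr fell, with a median of -0.10, 4 values below 0 and 2 above. The sums were 179 to 239 against 169 to 184, while the defining marker Sox10 had only 67 counts over all teeth. Of the neuron list 6 of 12 were tested and Tubb3 rose, with sums of 35.4 to 61.0 against 34.7 to 66.1. Their median was 0.13, with 4 values above 0 and 2 below. Those below 0 were Prph (-0.68, lower in all 5 embryos) and Nefm (-0.21), which were not called. Isl1 had 12 counts in total. The 2 tested genes of the muscle list had a median log2 fold change of -0.11, with sums of 3.48 to 16.0 against 2.63 to 25.0, and the 5 of cartilage and bone one of -0.10, with sums of 272 to 561 against 213 to 887. The part of cell composition in the changes of guidance genes was not tested.

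Neighbourhoods of the 8 changed guidance genes were tabulated last. Within 500 kb of their starts lie 81 tested protein coding genes, of which 11 were called (13.6%), against 12% of all tested protein coding genes. Sema5a had 0 such neighbours, Slit2 and Ephb6 had 1 each, and Sema3f had 35 with 6 called. Unc5a had 18 neighbours with 3 called, and Slit1 had 14 with 2 called. Sema3b, 83.8 kb from Sema3f, was the only guidance gene among them, and it had a log2 fold change of -0.03 (SE 0.30) where that of Sema3f was 0.28. Efna1, Efna3 and Efna4 also lie together, within 61.7 kb, with log2 fold changes of -0.19, 0.46 and 0.24.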

How the data were processed

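RNA-seq of 10 single cultured molars was analysed. The values deposited by the authors are estimated counts from salmon, 1 for each gene and tooth, in whole numbers (0 differed at all from their rounded value) and not normalized. The submitters' processing notes name FastQC 0.11.8, Trimmomatic 0.39, Salmon 0.99.0, DESeq2 and build GRCm38, and the transcript set, strand use and filtering are not given in the sources used here. Reads of paralogs, which are frequent in these families, and of overlapping genes could be split between genes. The estimates carry no molecular identifiers, and the totals set their precision, so that low genes such as Unc5a are least precise.

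Symbols, exon lengths and positions were taken from GENCODE M21 (GRCm38), where 18287 identifiers of the table matched and 94 did not. Counts were tested with edgeR 4.0.16 (quasi-likelihood F-test, TMM, edgeR's expression filter) in R 4.3.3, with embryo as a block and Benjamini-Hochberg adjustment over all 14504 genes, at a threshold of 0.05. Standard errors were derived from the F statistic. Ratios in single embryos used log2 CPM with a prior count of 0.5. Pairing comes from the labels, which take both teeth from 1 embryo. Deviations from group means correlated within embryos 1, 2, 3, 4 and 6 at 0.289, 0.168, -0.0462, 0.131 and 0.272, against a median of -0.0382 between embryos. To look for a library deposited more than once, teeth of a group were compared, and no pair agreed within counting noise (chi-square per degree of freedom 4.10 to 16.1). With embryo as a block, p-values for IGF1 measure how the difference between paired teeth varies over 5 embryos of a single strain.

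Alternatives were DESeq2's size factors, DESeq2 1.42.0 (Wald and likelihood ratio tests) and limma-voom (limma 3.58.1). Others were no filter and a stricter filter on low counts (10 counts in every sample of a group), no block and leaving out each embryo. The rest were the longest coding transcript as length, total counts in place of TMM, and neighbours within 1 Mb on either side. Promoters were read from RefSeq windows.

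The rule for the guidance genes uses symbols alone, but it and the further lists were set with earlier results of these data known. Named are all called guidance genes, the highest of each family by level per kb, those that gained or lost their call in 3 or more alternatives, those too low to test, and up to 5 called genes of each pathway list with the largest change. Dpysl3, Dpysl4 and others named for contrast within a family were chosen after their values were seen.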

Additional observations from a re-analysis of the deposited data

Results flagged for a closer look

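The IGF1 tooth of embryo 6 stood apart from the other IGF1 teeth in Sema7a. It had 41.2 CPM, against 7.67 to 16.7 in the other 4, and the gap to the nearest tooth was 0.732 of the whole range, above Dixon's critical value of 0.71 for 5 samples. The control tooth of the same embryo, at 40.2 CPM, was also the highest of its group. Of 44 groups of teeth examined this was the only 1 so far apart, where chance gives about 1 in 20, or 2.2 groups.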

How the results depend on the processing

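The directions of all 8 changed guidance genes were the same under all 11 alternatives. Sema5a (log2 fold change -0.48 to -0.45), Sema6a (-0.36 to -0.30) and Unc5a (1.48 to 1.89) were called in all 11, Ephb6 in 10, Slit1 in 8, Slit2 and Ntn4 in 6 and Sema3f in 2. Without the replicate block by embryo, 5 guidance genes were called in place of 8, with 3 of them lower, and over all genes 887 in place of 1666, while the other cues had 5, the transducers 3 and the neurotrophins 1 called. Leaving out single embryos gave 1 to 3 guidance genes higher (1 without embryo 3 or 6, and without embryo 2 the 3 were Unc5a, Sema3a and Unc5c, with Slit1 and Sema3f lost), 3 to 5 lower (3 without embryo 4), 5 to 7 in all (5 without embryo 4 or 6) and 986 to 1602 genes of the transcriptome (986 without embryo 4, 994 without embryo 6). The same fits gave 3 to 8 other cues, 4 to 11 transducers, 1 to 3 neurotrophins and receptors, and 0 to 7 guidance genes for embryo differences, where DESeq2 gave 5 and the stricter filter 1. Fits on 4 embryos have fewer samples, and the cause of the other differences was not tested.

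Values close to 0 changed sign. Efnb2 (0.0011) went to -0.000589 with DESeq2's size factors, -5.18e-05 with DESeq2's Wald test, -0.00403 with the stricter filter and -0.0363 to 0.0193 without single embryos. Unc5b (-0.0127) ran from -0.0970 to 0.0209 without single embryos, and Dcc (0.0173) to -0.0302 with limma-voom and from -0.105 to 0.157 without single embryos. None of these was called. Over the settings tried for the 22 guidance genes that are called, lead a family or changed call in 3 or more settings, 200 kept direction and call, 23 lost a call, 8 gained one and 11 changed sign. Outside these genes, Sema3a (0.30) and Unc5c (0.57) gained a call without embryo 2. With the longest coding transcript as length, 11 of 14 families of more than 1 gene kept their leading gene, and total counts alone kept all 14. Within 1 Mb on either side, 12.9% of the neighbours were called. Among the 8 changed genes, Unc5a had the fewest counts, 5 to 9 in control teeth.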
